A study of Mus musculus with 36 samples.

Results

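The transition from pro-B to pre-B cells was followed in mice that lack *Sirt7*, by comparing pre-B with pro-B cells of the same animal across the transcriptome. The genes described are the 16699 of 46078 rows of the sorted-cell RNA-seq table whose normalized count reached 10 in 2 or more of the 4 Sirt7-/- libraries. These 4 libraries are 1 pro-B and 1 pre-B library from each of 2 Sirt7-/- mice, of 8 sorted libraries in all. The other 4 come from 2 wild-type mice and were used to show the same change in wild-type mice. They also entered the fit, and so the spread behind each p-value.

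In the bone marrow, pro-B cells rearrange the immunoglobulin heavy chain locus, and a successful rearrangement is displayed with the surrogate light chain as the pre-B cell receptor (pre-BCR). Signals from the pre-BCR and from the IL-7 receptor first drive division; the cells then leave the cycle, silence the surrogate light chain and open the light chain loci for recombination as small pre-B cells. SIRT7 is a nuclear, NAD+-dependent deacetylase, and Pax5 is the transcription factor that holds cells in the B lineage during these steps.

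Sirt7-/- mice carried a germline deletion of *Sirt7* exons 4 to 10 on the 129Sv background, so that every cell type of the animal lacked these exons. Wild-type mice were littermates, both genotypes were untreated, and mice were 8 to 16 weeks old. Sorting gates for pro-B cells included B220+IgM-CD43+ and those for pre-B cells B220+IgM-CD43-, so that the stages are set by surface protein and not by recombination state or cell size. The 4 Sirt7-/- libraries held 55475976 (pro-B) and 51224850 (pre-B) whole reads in mouse 1 and 55536608 and 52103361 in mouse 2, and the wild-type libraries between 50004827 and 55497408. Values below are counts normalized by the authors with DESeq2 size factors, which are not divided by gene length. A change is the difference of log2(normalized count + 1), pre-B minus pro-B, and was fitted with limma over all 8 libraries with the mouse as a block. A gene is said to have risen or fallen where its Benjamini-Hochberg adjusted p over the 16699 genes was under 0.05. Each genotype has 2 mice, so the exact permutation test of a single gene, 2 libraries against 2, cannot go below a p of 0.33, and p-values are those of the model across genes.

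The labels of these libraries disagree with each other. Their titles give 1 pro-B and 1 pre-B library to each mouse, whereas their cell type field calls all 4 replicate 1 libraries pro-B and all 4 replicate 2 libraries pre-B. The titles were used, and most marker transcripts of the 2 stages went with the titles in both Sirt7-/- mice. An exception was the kappa constant region *Igkc*, taken as a pre-B marker, which was lower in pre-B cells of both mice. It went from 439264 to 269168 in mouse 1 and from 387073 to 246367 in mouse 2. *Spn*, which encodes the sorting marker CD43, had 21895 in pro-B and 6123 in pre-B cells of mouse 1 and 18148 and 7599.6 in mouse 2. *Il2ra*, which encodes the pre-B marker CD25, had 1648 in pro-B and 17564 in pre-B cells of mouse 1 and 1593 and 16329 in mouse 2. The B lineage gene *Pax5* was high in all 4 libraries, between 82788 and 129510.

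One library stood apart. The pre-B library of mouse 2 kept more of the transcripts that mark pro-B cells than that of mouse 1 did. Taking pre-B as a share of pro-B counts, *Kit*, the receptor of stem cell factor, was left at 1.03% in mouse 1 and 16.6% in mouse 2, *Dntt*, the polymerase that adds N nucleotides at heavy chain joints, at 1.4% in mouse 1 and 12.5% in mouse 2, and *Igll1*, the lambda5 part of the surrogate light chain, at 4.48% in mouse 1 and 16.9% in mouse 2. Markers of stimulation and of other cell types also separated the mice, most plainly the summed immediate early genes, 29539 in pro-B and 75960 in pre-B cells of mouse 1 and 150261 and 159821 in mouse 2, and the summed erythroid and megakaryocyte markers, 12054 in pro-B and 9123 in pre-B cells of mouse 1 and 48722 and 73206 in mouse 2. Both libraries of mouse 2 were high for these lists, so they differ between the mice and not only between the stages. The paper states that RNA-seq replicates were made on different days, so mouse and day cannot be told apart here. In bulk libraries fewer cells of a type and less RNA per cell cannot be told apart, and the change or adjusted p without the pre-B library of mouse 2 is given beside most of the called genes in which it moves the change by over 1.5 times or ends the call. The fit without it also lacks the mouse block, so a call lost there may be lost to either change.

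**Figure D1:**
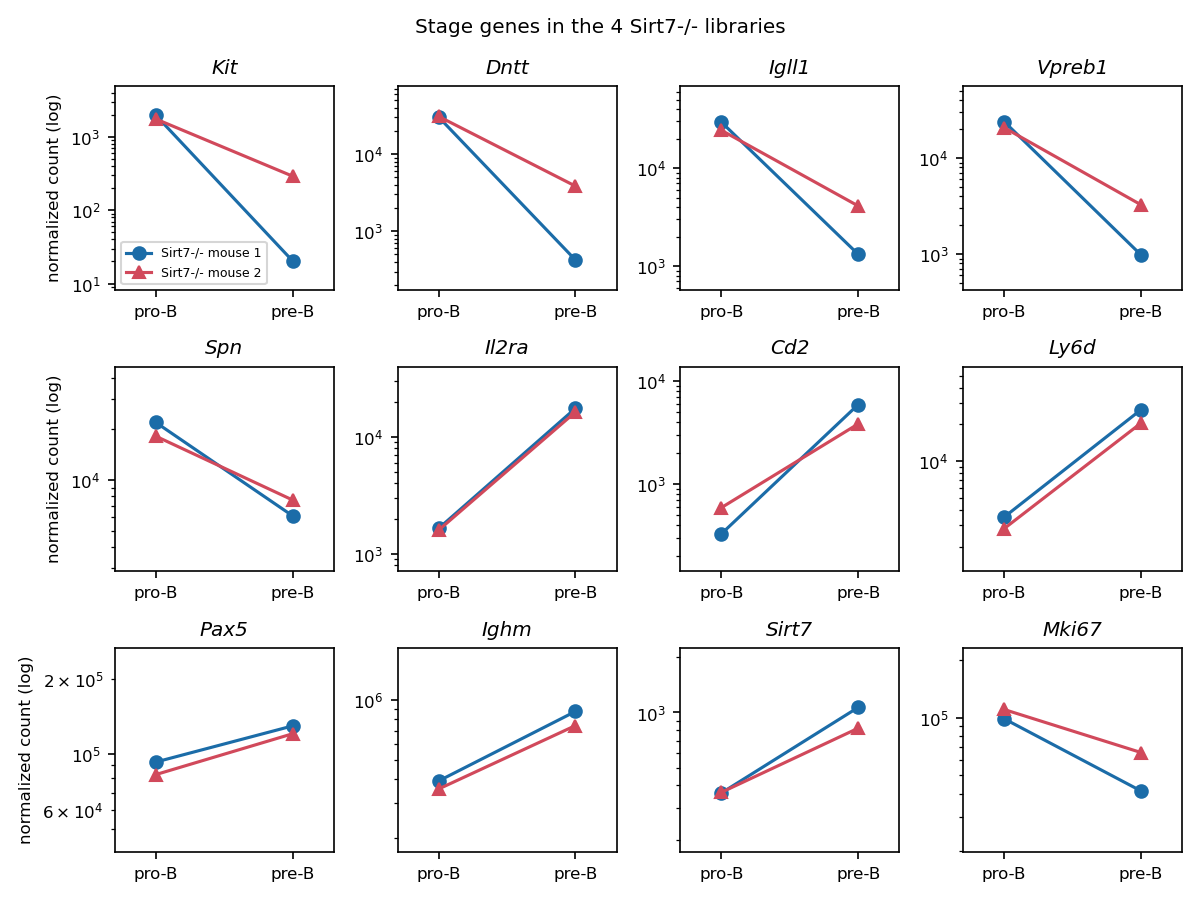
Normalized counts (log axis, scaled separately in each panel) of 12 genes in pro-B and pre-B cells of Sirt7-/- mouse 1 (circles) and mouse 2 (triangles), each line joining the 2 libraries of 1 mouse. *Il2ra*, *Cd2*, *Ly6d*, *Pax5*, *Ighm* and *Sirt7* were higher and *Kit*, *Dntt*, *Igll1*, *Vpreb1*, *Spn* and *Mki67* lower in pre-B cells of both mice, with the 4 steepest falls less steep in mouse 2.

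Without *Sirt7*, 3233 genes rose from the pro-B to the pre-B stage (19.4% of the genes fitted) and 3566 fell (21.4%). With an absolute log2 change of at least 1.5 as well, 733 rose (4.39%) and 1042 fell (6.24%). The median change was 0.85 among the genes that rose and -1.01 among those that fell, and over all genes fitted it was -0.03. The fall of the genes called lower was shallower in mouse 2, with a median of -1.11 in mouse 1 and -0.89 in mouse 2, whereas the genes called higher had medians of 0.89 and 0.79. Without the pre-B library of mouse 2, in a fit without the block, 2581 genes rose and 3261 fell. Without both libraries of mouse 1, 1090 rose and 942 fell, and without both of mouse 2, 1939 rose and 2211 fell. For the lists below, counts in brackets are the members that rose and fell without both libraries of mouse 1 or of mouse 2; they are to be read against these smaller totals.

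*Sirt7* itself (chr11:120618372-120625240, minus strand, GRCm38) was low in both Sirt7-/- mice and still rose between the stages. Its normalized count was 363 in pro-B and 1066 in pre-B cells of mouse 1 and 366 and 821 in mouse 2, against 2692 in pro-B and 5613 in pre-B cells of mouse 1 and 2533 and 5219 in mouse 2 of the wild type. All 4 Sirt7-/- libraries lay below all 4 wild-type libraries. The rise in Sirt7-/- mice (log2 change 1.36, SE 0.128, adjusted p = 0.00302) was beside a wild-type change of 1.05 (difference 0.31, SE 0.181, unadjusted p = 0.153, adjusted p = 0.719). Which exons the remaining reads came from was not analysed here. Of the other members of the family, *Sirt2* (0.68), *Sirt6* (0.45) and *Sirt4* (0.43) also rose and *Sirt3* fell by 0.71, giving 4 sirtuins that rose and 1 that fell of 7 fitted, beside 19.4% and 21.4% of all genes. These counts were 1 and 0 without both libraries of mouse 1, and 2 and 0 without those of mouse 2. Without the pre-B library of mouse 2, in the fit without the block, *Sirt3* and *Sirt4* missed the threshold, with changes of -0.52 and 0.46.

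The surface genes that define the stages moved in both directions, 5 up and 5 down of 12 (5 and 2 without mouse 1, 5 and 4 without mouse 2). Of all genes, 19.4% rose and 21.4% fell. *Il2ra* rose (log2 change 3.38, SE 0.0828, adjusted p = 0.000568), from 1648 and 1593 in pro-B to the pre-B values above, with the 2 mice close to each other at each stage. *Cd2*, an adhesion receptor that appears on pre-B cells, rose from 330.2 to 5902 in mouse 1 and from 592 to 3834 in mouse 2 (log2 change 3.42, SE 0.375, adjusted p = 0.00388). *Ly6d*, a surface marker of B-committed progenitors, rose from 3493 to 26367 in mouse 1 and from 2811 to 20498 in mouse 2. *Ptprc*, which encodes CD45 and its B220 form, rose by 1.48. The stem cell factor receptor *Kit* fell from 1967 to 20.3 in mouse 1 and from 1753 to 291 in mouse 2 (log2 change -4.56, SE 0.922, adjusted p = 0.0173), and *Flt3*, the receptor of FLT3 ligand on early progenitors, from 427 to 32 in mouse 1 and from 529 to 113 in mouse 2. The 2 stages did not overlap for either gene, and in both the pre-B value was higher in mouse 2. Without that library the changes were -6.45 for *Kit* and -3.85 for *Flt3*. *Spn* fell by 1.55, and *Cd24a*, which encodes heat-stable antigen and had the highest count of the list, fell from 178500 to 88728 in mouse 1 and from 158819 to 113404 in mouse 2.

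The surrogate light chain fell steeply while most of the pre-BCR signalling genes rose, 11 up and 3 down of 16 (7 and 3 without mouse 1, 9 and 3 without mouse 2), beside 19.4% and 21.4% of all genes. The 3 that fell are the 3 surrogate light chain genes. *Vpreb1* had 24087 in pro-B and 982 in pre-B cells of mouse 1 and 20812 and 3268 in mouse 2 (log2 change -3.64, SE 0.445, adjusted p = 0.0049). *Vpreb2*, its near-identical copy, whose reads may be split between the copies, had 3958 in pro-B and 123 in pre-B cells of mouse 1 and 3599.8 and 458 in mouse 2 (log2 change -3.99, SE 0.475, adjusted p = 0.00466). *Igll1* had 29529 in pro-B and 1324 in pre-B cells of mouse 1 and 24379.5 and 4122 in mouse 2 (log2 change -3.52, SE 0.485, adjusted p = 0.00633). In each case the pre-B value of mouse 2 was over that of mouse 1 and far under both pro-B values. Without that library the changes were -4.51, -4.93 and -4.34. *Ighm*, the mu heavy chain with the highest count of the list, rose from 389631 to 875619 in mouse 1 and from 354788 to 742538 in mouse 2 (log2 change 1.12, SE 0.0846, adjusted p = 0.00204). The signal chains *Cd79a* and *Cd79b* (Ig-alpha and Ig-beta) rose by 0.99 and 1.52, the kinase *Syk* by 1.56, the adaptor *Dok3* by 1.69 and the inhibitory co-receptor *Cd72* by 1.74. The adaptor *Blnk* (log2 change 0.05, adjusted p = 0.582) and the phospholipase *Plcg2* (0.14, adjusted p = 0.165) did not pass the test.

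Wild-type Pax5 binding was available as a readout that the stage comparison did not use, from ChIP-seq in cultured Pax5-/- pro-B cells given wild-type Pax5. Of the pre-BCR list 14 of 16 genes held a peak found in both replicates, against 33.2% of all genes fitted that the annotation places once. The window was the gene body and the 5000 bases before the start, so it grows with the gene. Pax5 peaks lay at genes that fell as well as at genes that rose. The strongest peak at *Igll1*, which fell, had 33.4-fold enrichment and its summit 140 bases before the RefSeq start; that at *Cd72*, which rose, had 11.7-fold enrichment and its summit 93 bases before the RefSeq start. The stretches around the 2 summits are shown because they place a Pax5 peak in the promoters of genes that moved in opposite directions. They are RefSeq promoter sequence (GRCm38.p6) on the minus strand, chr16:16864065-16864185 and chr4:43454659-43454779, written 5' to 3', with the summit base and 10 bases on either side in capitals.
Igll1: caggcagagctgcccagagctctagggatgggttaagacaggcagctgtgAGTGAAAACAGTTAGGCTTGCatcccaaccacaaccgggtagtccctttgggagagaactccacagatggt
Cd72: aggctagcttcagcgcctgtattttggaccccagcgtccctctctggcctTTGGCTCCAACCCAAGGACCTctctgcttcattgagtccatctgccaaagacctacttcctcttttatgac

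Across all genes that changed, 42.6% (40.8 to 44.4%) of those that rose held a Pax5 peak in the gene body or the 5000 bases before the start, 34% (32.4 to 35.6%) of those that fell and 33.2% (32.5 to 34%) of all genes fitted (exact 95% binomial intervals, which cover counting error only and treat genes as independent). The share among genes that fell was close to that of all genes, and the share among genes that rose was higher. The order was the same within 2000 bases on either side of the start, a window that does not grow with the gene, at 31.7%, 25.6% and 25.2%. Genes that rose also had the highest median normalized count over the Sirt7-/- libraries, 2129.9 against 1162 for those that fell and 701 for all, and the longest median transcript, 3544 against 2962 and 2885 bases. Their median gene span was the longest as well, 21884 against 20224.5 and 16493 bases. The part of these differences in the shares was not tested. The median GC content was 50.4%, 49.8% and 49.7%.

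**Figure D2:**
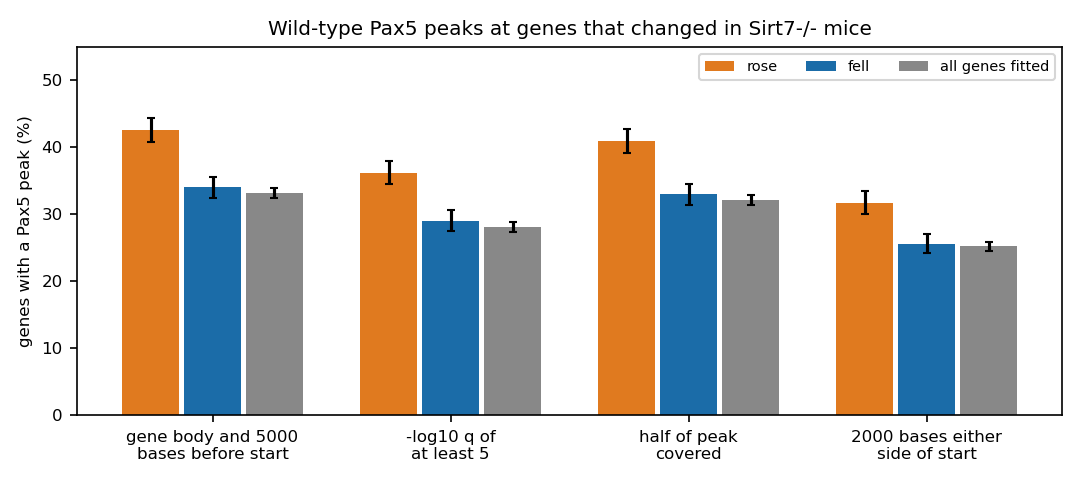
Percent of genes that rose (orange), that fell (blue) and of all genes fitted (grey) with a wild-type Pax5 ChIP-seq peak found in both replicates, under 4 choices of peak and window; error bars are exact 95% binomial intervals. The bar of genes that rose is the highest under each choice, 42.6% in the main window.

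Of 12 V(D)J recombination genes 4 rose, 3 fell and 5 were not called (1 and 1 without mouse 1, 2 and 2 without mouse 2), beside 19.4% and 21.4% of all genes. The share that fell was near that of all genes. *Dntt* fell most (log2 change -4.58, SE 0.715, adjusted p = 0.00866), with 30149 in pro-B and 423 in pre-B cells of mouse 1 and 30749.8 and 3838 in mouse 2. Without the pre-B library of mouse 2 its change was -6.17. *Rag1*, the catalytic part of the recombinase, rose from 17488 to 32407 in mouse 1 and from 23795 to 45261 in mouse 2 (log2 change 0.91, SE 0.0833, adjusted p = 0.00286). Its partner *Rag2* went the other way, from 10073 to 7301 in mouse 1 and from 10502 to 9205 in mouse 2 (log2 change -0.33, SE 0.0936, adjusted p = 0.0452). Both mice agree in sign for the 2 genes, and the *Rag2* call is a marginal one that is lost with TMM normalization, without the block and without the pre-B library of mouse 2, where *Rag1* is lost as well (adjusted p = 0.233 and 0.166). *Dclre1c*, which encodes the hairpin-opening nuclease Artemis, rose by 0.96, and *Xrcc5*, which encodes Ku80, fell by 0.81. The median of the list was 0.02.

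Of the 4 light chain constant regions 2 rose and 0 fell, beside 19.4% and 21.4% of all genes. *Iglc2* and *Iglc3*, 2 lambda segments with similar sequences, rose by 2.70 and 3.70. The lambda segment *Iglc1* did not pass the test (log2 change 1.32, adjusted p = 0.126). *Igkc*, the kappa constant region, did not pass the test (log2 change -0.68, SE 0.25, adjusted p = 0.0874), with 439264 in pro-B and 269168 in pre-B cells of mouse 1 and 387073 and 246367 in mouse 2. The counts of *Igkc* were lower in pre-B cells of both mice. Plasma cell transcripts moved the same way, with summed plasma cell markers of 348619 in pro-B and 45689 in pre-B cells of mouse 1 and 376145 and 49743 in mouse 2; their part in the *Igkc* values was not tested.

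Of 28 B lineage transcription factors 17 rose and 5 fell (9 and 1 without mouse 1, 10 and 4 without mouse 2), beside 19.4% and 21.4% of all genes, so that the share that fell was near that of all genes. The list had a median of 0.50 beside -0.03 for all genes. *Pax5*, with the highest count of the list over the Sirt7-/- libraries, rose from 92895 to 129510 in mouse 1 and from 82788 to 120493 in mouse 2 (log2 change 0.51, SE 0.0674, adjusted p = 0.00575). *Spib*, an ETS factor of later B cells, rose from 39588 to 172811 in mouse 1 and from 38557 to 153494 in mouse 2 (log2 change 2.06, SE 0.0706, adjusted p = 0.000697). *Klf2*, a factor of resting lymphocytes, rose from 4293 to 39789 in mouse 1 and from 12490.5 to 35986 in mouse 2 (log2 change 2.37, SE 0.396, adjusted p = 0.0104), and the pro-B value of mouse 2 was well above that of mouse 1. *Irf4*, which acts in light chain recombination, rose by 0.68. *Erg*, an ETS factor of progenitors, fell from 9715 to 650.4 in mouse 1 and from 9393 to 1646 in mouse 2 (log2 change -3.21, SE 0.449, adjusted p = 0.00662; -3.87 without the pre-B library of mouse 2), and *Lef1*, a Wnt pathway factor of dividing pro-B cells, fell from 27497 to 5289 in mouse 1 and from 30047 to 8794 in mouse 2 (log2 change -2.08, SE 0.156, adjusted p = 0.002). *Ebf1*, which specifies the B lineage, had a log2 change of 0.13 (adjusted p = 0.205). 22 of the 28 held a Pax5 peak, where 33.2% of all genes fitted did. Of the 30 DNA replication genes 9 held one, a share near that of all genes. The window takes in the gene body and so grows with the gene, and the part of gene length in these shares was not tested.

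The IL-7 receptor pathway had 5 genes up and 3 down of 13 (3 and 2 without mouse 1, 5 and 2 without mouse 2), beside 19.4% and 21.4% of all genes. The share that fell was near that of all genes, and the list had a median of 0.03. *Il7r*, the receptor chain with the highest count, had 16139 in pro-B and 14147 in pre-B cells of mouse 1 and 15516 and 15877 in mouse 2 (adjusted p = 0.617), and the 2 mice differed in sign. *Socs1*, an inhibitor of cytokine signals, rose from 242 to 2399.9 in mouse 1 and from 392 to 2291 in mouse 2 (log2 change 2.92, SE 0.205, adjusted p = 0.00181), and the survival kinase *Pim2* rose from 2841 to 14896 in mouse 1 and from 2778 to 12709.6 in mouse 2 (log2 change 2.29, SE 0.0955, adjusted p = 0.000742). The shared receptor chain *Il2rg* rose by 1.30. *Socs2*, a STAT5 target, fell by 1.48. Of 9 progenitor genes 4 fell and 0 rose (0 and 3 without mouse 1, 0 and 1 without mouse 2), where 21.4% of all genes fell: the stem cell antigen *Cd34* (-3.66), the homeobox genes *Hoxa9* (-2.38) and *Meis1* (-0.74), and *Hlf* (-4.76). *Gfi1*, a repressor of the myeloid program and the member with the highest count, had a log2 change of -0.56 (adjusted p = 0.0541). *Hlf* was listed at 0 in both pre-B libraries and passed the filter through the pro-B libraries alone, so it could only be seen to fall. *Cd34* lost its call without the pre-B library of mouse 2, with a change of -1.82.

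The cell cycle genes fell together. All 30 DNA replication genes and all 26 mitosis genes fell, where 21.4% of all genes did, with medians of -1.11 and -1.12. In mouse 1 and mouse 2 the medians were -1.29 and -0.97 for replication and -1.36 and -0.93 for mitosis. All 56 also fell without the pre-B library of mouse 2, with medians of -1.31 and -1.47. Without both libraries of mouse 1, 19 of 30 and 10 of 26 fell, and without both of mouse 2, 28 and 26. The largest fall among the 30 was that of *Tyms*, thymidylate synthase, from 4257 to 953 in mouse 1 and from 4565 to 1509 in mouse 2 (log2 change -1.88, SE 0.202, adjusted p = 0.00375). *Gins2*, of the replicative helicase, fell by 1.59, the replication factor *Mcm10* by 1.57, the helicase subunit *Mcm6* by 1.55 and *Uhrf1*, which maintains DNA methylation and had the highest count, by 1.06. *Mki67*, the gene of the Ki-67 antigen of cycling cells, had 98772 in pro-B and 41322 in pre-B cells of mouse 1 and 110438 and 65706 in mouse 2. Its pre-B value was higher in mouse 2, and the stages did not overlap. The mitotic cyclin *Ccnb1* fell by 1.56, its kinase *Cdk1* by 1.46, the checkpoint kinase *Bub1b* by 1.36 and the ubiquitin-conjugating enzyme *Ube2c* by 1.35.

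Of the Myc and G1 regulators 11 of 17 fell and 4 rose (1 and 5 without mouse 1, 2 and 11 without mouse 2), beside 19.4% and 21.4% of all genes. The share that rose was near that of all genes. *Myc*, the growth regulator, fell from 5481 to 983 in mouse 1 and from 7339.9 to 1902 in mouse 2 (log2 change -2.21, SE 0.163, adjusted p = 0.00194). The D-type cyclins *Ccnd2* and *Ccnd3*, which act downstream of cytokine and pre-BCR signals, both fell. *Ccnd2* went from 12209 to 2183 in mouse 1 and from 10991 to 3279.9 in mouse 2, and *Ccnd3* from 79001 to 12345 in mouse 1 and from 71756 to 33397 in mouse 2. *Ccnd3*, with the highest count of the list, kept 46.5% of its pro-B level in mouse 2 and 15.6% in mouse 1. Its change was -1.89, or -2.61 without the pre-B library of mouse 2. Their partner kinase *Cdk6* fell by 2.26, and the inhibitor *Cdkn1a*, which encodes p21, fell with them by 1.99. The inhibitor *Cdkn1b*, which encodes p27 of resting cells, rose from 10324 to 20787 in mouse 1 and from 11457 to 21159.5 in mouse 2 (log2 change 0.95, SE 0.116, adjusted p = 0.00487), and the retinoblastoma gene *Rb1* rose by 0.51, a call lost without the pre-B library of mouse 2 (adjusted p = 0.0926).

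The promoters of the replication genes were searched for 2 forms of the E2F site, TTTCCCGC and TTTGGCGC, on both strands in the 250 bases before each RefSeq start. Of the 25 replication genes with a promoter in the table, 5 held a match (20%), against 2.78% of all genes fitted, 3.73% of the genes that fell, 1.74% of those that rose and 1.3% of all 32851 promoters. None of the 22 mitosis genes with a promoter held one. Of 18 ribosome biogenesis genes 3 held one (16.7%). The same search for the palindrome of the B lineage factor EBF1 (TCCC and GGGA with 2 free bases between) matched 1 of 12 pre-BCR genes and 1.22% of all genes fitted, and for the interferon response element (GAAA repeated after 2 free bases) 8 of 10 interferon-stimulated genes and 3.17%. A match is a match of letters. The 5 replication promoters are shown because they share these letters and their genes fell together; each is cut to 40 bases around its matches, written 5' to 3' with the matches in capitals (RefSeq, GRCm38.p6).
Mcm5 (chr8:75109320-75109407, plus strand): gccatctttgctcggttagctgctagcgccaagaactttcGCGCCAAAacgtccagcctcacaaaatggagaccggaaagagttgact
Mcm6 (chr1:128359706-128359855, minus strand): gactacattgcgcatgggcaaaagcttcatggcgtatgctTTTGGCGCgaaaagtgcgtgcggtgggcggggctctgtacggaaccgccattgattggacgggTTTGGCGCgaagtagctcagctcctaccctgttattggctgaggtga
Mcm7 (chr5:138172001-138172088, minus strand): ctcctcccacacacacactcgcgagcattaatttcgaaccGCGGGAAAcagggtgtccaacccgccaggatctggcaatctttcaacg
Cdc6 (chr11:98907973-98908060, plus strand): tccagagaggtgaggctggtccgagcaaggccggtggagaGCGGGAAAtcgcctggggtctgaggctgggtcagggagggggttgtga
Pola1 (chrX:93632246-93632333, minus strand): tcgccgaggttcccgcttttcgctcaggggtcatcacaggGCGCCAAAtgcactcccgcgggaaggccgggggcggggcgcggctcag
*Mcm6* held 2 matches and the other 4 held 1 each, between 47 and 165 bases before the start. The log2 changes of these genes were -1.22 (*Mcm5*), -1.55 (*Mcm6*), -1.14 (*Mcm7*), -1.04 (*Cdc6*) and -1.42 (*Pola1*), within the range of all 30 members, -1.88 to -0.64.

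Growth genes fell as well. Of 22 ribosome biogenesis genes 19 fell and 0 rose (0 and 13 without mouse 1, 0 and 16 without mouse 2), where 21.4% of all genes fell, with a median of -0.93 and nearly the same median in the 2 mice (-0.97 in mouse 1 and -0.89 in mouse 2). *Ncl* (nucleolin), with the highest count, fell from 29076 to 10977 in mouse 1 and from 33581 to 14042 in mouse 2 (log2 change -1.33, SE 0.0719, adjusted p = 0.00113). *Nop58* and *Npm1* of the nucleolus fell by 1.40 and 1.36, and the ribosome assembly factor *Rrp12* by 1.35. Of 14 glycolysis genes 11 fell and 2 rose (0 and 4 without mouse 1, 1 and 8 without mouse 2), beside 19.4% and 21.4% of all genes. The share that rose was near that of all genes. The list had a median of -0.79. *Ldha*, lactate dehydrogenase, fell from 15403 to 3504 in mouse 1 and from 15939 to 5959 in mouse 2 (log2 change -1.78, SE 0.176, adjusted p = 0.00326), *Gapdh* from 32944 to 11268 in mouse 1 and from 32463 to 16523 in mouse 2, and triose phosphate isomerase (*Tpi1*) and hexokinase (*Hk2*) had changes of -1.25 and -1.13.

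Of 11 BCL2 family genes 4 rose and 1 fell (4 and 0 without mouse 1, 5 and 1 without mouse 2), beside 19.4% and 21.4% of all genes. The pro-death gene *Bmf* rose from 3779 to 12283 in mouse 1 and from 3294 to 9716 in mouse 2 (log2 change 1.63, SE 0.104, adjusted p = 0.0015), and the pro-survival genes *Bcl2*, *Bcl2l1* and *Mcl1* rose by 1.60, 1.11 and 1.0; pro-death *Bid* fell by 1.10. Of 12 homing genes 7 rose and 1 fell (5 and 1 without mouse 1, 7 and 1 without mouse 2), where 19.4% of all genes rose. *Cxcr4*, the receptor that holds B progenitors in the marrow and the member with the highest count, rose from 23646 to 41746 in mouse 1 and from 23856 to 50709.9 in mouse 2 (log2 change 0.95, SE 0.0877, adjusted p = 0.00288). *Gpr183* and *Cxcr5*, which guide B cells in lymphoid tissue, rose by 3.34 and 3.09, the integrin chain *Itgb7* by 2.11 and the egress receptor *S1pr1* by 2.04.

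The list of immature and mature B cell genes had the highest median of the 26 lists, with 14 of 15 members up (13 and 0 without mouse 1, 14 and 0 without mouse 2) where 19.4% of all genes rose. The median was 2.82 (2.91 in mouse 1 and 2.73 in mouse 2), and *Cxcr5* is among 2 members that also stand in the homing list. *Fcer2a*, which encodes CD23 of mature B cells, had 329 in pro-B and 22522 in pre-B cells of mouse 1 and 193 and 14430.1 in mouse 2 (log2 change 6.16, SE 0.119, adjusted p = 0.000568). *Ms4a1*, which encodes CD20, rose from 911 to 14977 in mouse 1 and from 662 to 12030 in mouse 2, and *Cr2*, the complement receptor CD21, from 146 to 2462 in mouse 1 and from 72.9 to 1285 in mouse 2. The pro-B values were low but above 0 in both mice, and the pre-B values of mouse 1 exceeded those of mouse 2. *Cd40* rose by 3.66, *Ighd*, the delta heavy chain of mature cells, from 12856 to 140086 in mouse 1 and from 10050.4 to 100170 in mouse 2 (log2 change 3.38, SE 0.0885, adjusted p = 0.000568), and *Cd74*, the class II invariant chain with the highest count, from 27578 to 164490 in mouse 1 and from 18734 to 102782 in mouse 2. Summed, the 15 markers were 83149 in pro-B and 563527 in pre-B cells of mouse 1 and 67890 and 378751 in mouse 2, with none at 0. The gate excluded surface IgM; how many cells past the pre-B stage these libraries held was not tested.

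**Figure D3:**
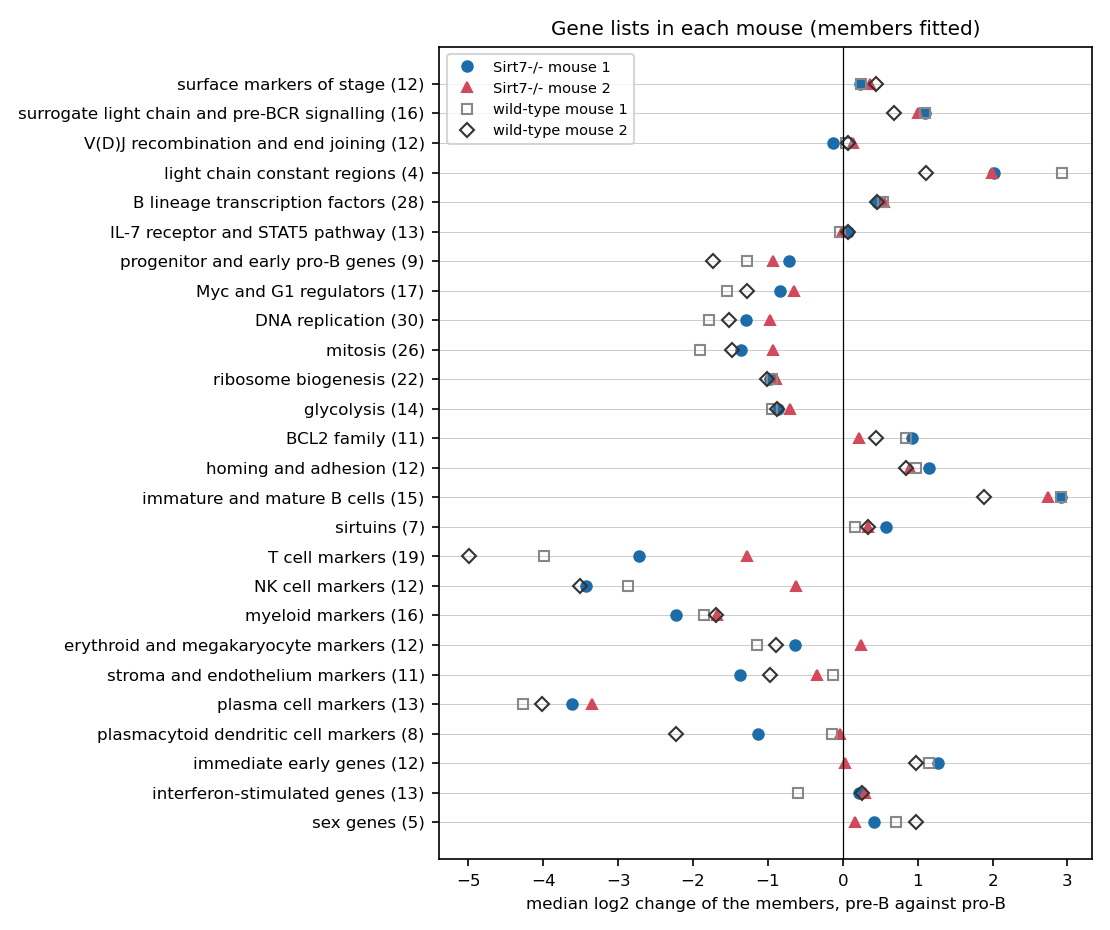
Median log2 change, pre-B against pro-B, of the members of 26 gene lists (number fitted in brackets) in Sirt7-/- mouse 1 (filled circles), Sirt7-/- mouse 2 (filled triangles) and the 2 wild-type mice (open squares and diamonds). DNA replication and mitosis lie at -1.11 and -1.12 over the Sirt7-/- mice, immature and mature B cells at 2.82, and the T cell and NK cell markers differ most between the 2 Sirt7-/- mice.

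Among single genes averaging 100 or more and with the same sign in both mice, the 10 largest rises ran from 7.68 to 4.78. *Gad1*, glutamate decarboxylase, had 0 in pro-B and 238 in pre-B cells of mouse 1 and 0 and 176 in mouse 2; against a floor of 3 reads in each pro-B library its level was, from the lower pre-B to the higher floor, at least 63.6-fold higher. *Fcer2a* and *Fcmr*, the receptor of the Fc part of IgM, came with it, and *Fcmr* rose from 944 to 32489 in mouse 1 and from 634 to 23083 in mouse 2 (log2 change 5.14, SE 0.191, adjusted p = 0.00071). *Cnr2*, the cannabinoid receptor of B cells, rose from 107 to 3117 in mouse 1 and from 94.1 to 2527 in mouse 2. Also among them were *Crip3* (6.05), *Ms4a4c* (4.85), the Wnt ligand *Wnt10a* (4.78) and the clone-named loci *RP23-64J23.3* (5.49) and *RP23-64J23.14* (4.86). *Crip3* had 9.17 in pro-B cells of mouse 1 and 0 in those of mouse 2. *Gad1* and *Crip3* passed the filter through the pre-B libraries alone, so they could only be seen to rise. All 10 had their 2 pre-B values above their 2 pro-B values, which nearly follows from how they were picked.

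The 10 largest falls ran from -6.25 to -5.43. Without the pre-B library of mouse 2 the same 10 changes ran from -9.45 to -6.15, with -9.43 for *Robo4*, -8.08 for *Mmrn1*, -7.87 for *Pdcd1* and -8.51 for *Pde9a*. *Mmrn1*, multimerin, had 1846 in pro-B and 6.4 in pre-B cells of mouse 1 and 2155 and 279 in mouse 2 (log2 change -5.45, SE 1.15, adjusted p = 0.0196). *Robo4*, a guidance receptor, fell from 572 to 0 in mouse 1 and from 829 to 114 in mouse 2, and *Pdcd1*, which encodes PD-1, from 229 to 0 in mouse 1 and from 237 to 26.3 in mouse 2. *Phldb1* (-6.25), *Megf10* (-6.20), the progesterone receptor *Pgr* (-6.12), the protease *Htra3* (-6.03), the histone variant gene *H2afy2* (-5.45) and the phosphodiesterase *Pde9a* (-5.43) behaved alike. Of these 10, the pre-B library of mouse 1 was at 0 for 8 and that of mouse 2 for none, so that the fitted values depend on the 1 added before taking logs. *Zbed6* had 2105 in pro-B and 29.9 in pre-B cells of mouse 1 and 2289 and 26.3 in mouse 2, and its call was lost without the pre-B library of mouse 2 (adjusted p = 0.0921). It lies within *Zc3h11a* on the same strand (chr1:133655879-133660885, GRCm38), so reads may be shared with its host, and 1 of the 2 wild-type mice showed no fall (2204 to 3487).

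The summed T cell, NK cell, myeloid and plasma cell markers were higher in the pro-B than in the pre-B library of each Sirt7-/- mouse. Of 19 T cell markers fitted (of 22 listed) 10 fell and 0 rose (rose and fell, 0 and 3 without mouse 1, 0 and 5 without mouse 2), where 21.4% of all genes fell, with a median of -2.15 (-2.72 in mouse 1 and -1.28 in mouse 2) and a summed level of 10114 in pro-B and 3897 in pre-B cells of mouse 1 and 9248 and 4523 in mouse 2. *Lck*, a kinase of T cell receptor signalling, had the highest count, 4508 in pro-B and 3384 in pre-B cells of mouse 1 and 3958 and 3161 in mouse 2. The defining genes *Cd3e* and *Cd3d* had 22 and 13.8 in pro-B cells of mouse 1, 10.1 and 15.7 in mouse 2, and were at 0 in both pre-B libraries, as were *Cd3g* and *Bcl11b*. *Cd3e* and *Cd3d* passed the filter through the pro-B libraries alone, so they could only be seen to fall. The co-receptor *Cd28* fell from 261 to 0 in mouse 1 and from 210.3 to 31.6 in mouse 2, and *Tigit* from 58.7 to 0 in mouse 1 and from 47.1 to 10.5 in mouse 2. Their changes were -5.37 and -3.98, or -7.88 and -5.74 without the pre-B library of mouse 2. Of 12 NK cell markers only *Klre1* (-4.67) and *Nkg7* (-2.35, or -3.78 without the pre-B library of mouse 2) fell and 0 rose (rose and fell, 0 and 1 without mouse 1, 1 and 6 without mouse 2). Of all genes 21.4% fell, a similar share. *Klre1* was at 0 in both pre-B libraries and passed the filter through the pro-B libraries alone, so it could only be seen to fall. *Il2rb*, the most abundant, had 304 in pro-B and 27.7 in pre-B cells of mouse 1 and 1007 and 685 in mouse 2. Summed NK markers were 1116 in pro-B and 503 in pre-B cells of mouse 1 and 2826 and 1946 in mouse 2, so both libraries of mouse 2 lay above both of mouse 1, and 8 of the 12 fell without the pre-B library of mouse 2.

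Of 16 myeloid markers fitted (of 17 listed) 11 fell and 1 rose (rose and fell, 1 and 8 without mouse 1, 1 and 10 without mouse 2), beside 19.4% and 21.4% of all genes. Summed they were 77312 in pro-B and 16695 in pre-B cells of mouse 1 and 16445 and 12372 in mouse 2. The granule gene *Ngp* had the highest count, 39827 in pro-B and 3761 in pre-B cells of mouse 1 and 4974 and 1134 in mouse 2, and *Lyz2*, *Camp* and *Ltf*, which are lysozyme and further granule genes, fell too (-2.84, -2.77 and -2.76). Without the pre-B library of mouse 2 the changes of *Ngp*, *Camp* and *Ltf* were -1.90, -1.66 and -1.98 and were not called. The pro-B library of mouse 1 stood well above the other 3 libraries, and without the pre-B library of mouse 2, in a fit without the block, 1 myeloid marker fell in place of 11. Of 13 plasma cell markers 9 fell and 1 rose (rose and fell, 1 and 7 without mouse 1, 1 and 7 without mouse 2), beside 19.4% and 21.4% of all genes, with a median of -3.49. *Igha*, the heavy chain of IgA with the highest count, had 130194 in pro-B and 10582 in pre-B cells of mouse 1 and 104981 and 10264 in mouse 2 (log2 change -3.49, SE 0.102, adjusted p = 0.000697), and *Ighg1* 44490.5 in pro-B and 1345 in pre-B cells of mouse 1 and 105183 and 3656 in mouse 2. *Tnfrsf17*, which encodes BCMA of plasma cells, had 80.7 and 65.5 in the pro-B libraries and was at 0 in both pre-B libraries. It passed the filter through the pro-B libraries alone, so it could only be seen to fall. *Ighg2c* and the secretory gene *Fkbp11* fell by 4.98 and 5.10. The changes of *Ighg1* and *Fkbp11* were -5.67 and -3.76 without the pre-B library of mouse 2, against -4.95 and -5.10 with it. The summed plasma cell levels given above were close between the mice and far apart between the stages.

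Of 12 erythroid and megakaryocyte markers 3 fell, among them the erythropoietin receptor *Epor* (-2.32) and the erythroid factor *Klf1* (-1.0), and 0 rose (rose and fell, 0 and 0 without mouse 1, 0 and 2 without mouse 2). Of all genes 21.4% fell, a similar share. *Hba-a1*, alpha globin, whose reads may be shared with its copy *Hba-a2*, had 3144 in pro-B and 3230.4 in pre-B cells of mouse 1 and 19328 and 22303 in mouse 2. Of 11 stroma and endothelium markers fitted (of 12 listed) *Cdh5* (1.42) and *Pecam1* (1.12, the highest count) rose and *Emcn* (-4.22, or -5.83 without the pre-B library of mouse 2) fell (rose and fell, 1 and 0 without mouse 1, 2 and 4 without mouse 2), beside 19.4% and 21.4% of all genes. The share that rose was near that of all genes, and 3 rose and 4 fell without the pre-B library of mouse 2. The list summed to 7568 in pro-B and 16524 in pre-B cells of mouse 1 and 7096 and 14117 in mouse 2, of which *Pecam1*, which B progenitors also make, was the larger part, and *Lepr* of stroma was at 0 in both pre-B libraries. Of 8 plasmacytoid dendritic cell markers *Cox6a2* (2.12) and *Pacsin1* (1.96, the highest count over these libraries) rose and *Bst2* (-0.72, not called without the pre-B library of mouse 2) fell (rose and fell, 1 and 0 without mouse 1, 2 and 1 without mouse 2). With 8 members these counts are near the 19.4% and 21.4% of all genes, and 2 rose and 2 fell without the pre-B library of mouse 2. Summed they were 1584 in pro-B and 4542 in pre-B cells of mouse 1 and 3072 and 4286 in mouse 2. *Siglech*, which defines these cells, had 80.7 in pro-B and 0 in pre-B cells of mouse 1 and 492 and 497 in mouse 2, so that mouse 2 had the same level at both stages and mouse 1 none at the pre-B stage. The part of other cell types in the stage changes was not tested.

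**Figure D4:**
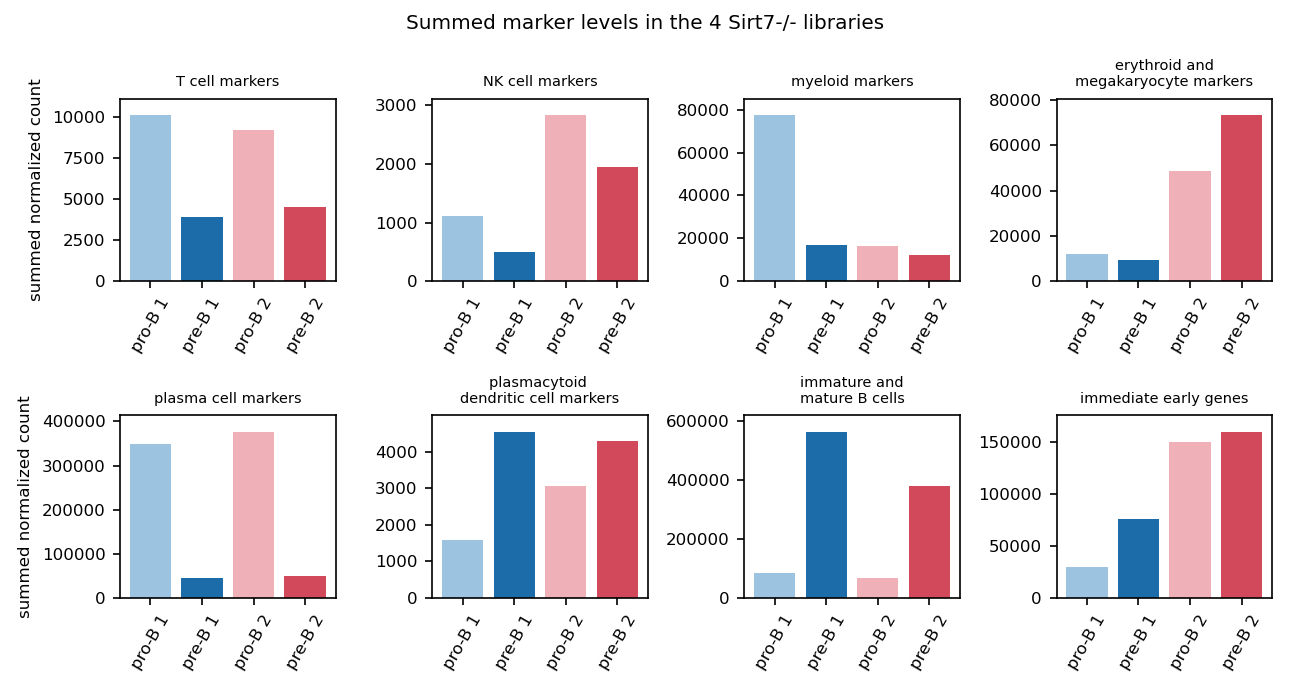
Summed normalized counts of 8 marker lists in the 4 Sirt7-/- libraries (bars, 1 per library, each panel from 0 on its own axis). T cell and plasma cell markers were higher in both pro-B libraries, immature and mature B cell markers in both pre-B libraries, and NK cell, erythroid and immediate early genes in both libraries of mouse 2.

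Immediate early genes, which respond within minutes to receptor signals and to handling, had 5 up and 0 down of 12 (3 and 1 without mouse 1, 7 and 0 without mouse 2), beside 19.4% and 21.4% of all genes. Of the 12, 2 rose and 0 fell without the pre-B library of mouse 2. The mice differed in median (1.27 in mouse 1 and 0.03 in mouse 2). *Egr3* rose from 92.6 to 2494 in mouse 1 and from 76.6 to 1469.8 in mouse 2 (log2 change 4.49, SE 0.218, adjusted p = 0.000929), and *Egr2* by 2.96; both lie downstream of pre-BCR signals. *Zfp36*, with the highest count, had 15658 in pro-B and 44915 in pre-B cells of mouse 1 and 40544 and 65403 in mouse 2, and *Junb* rose by 1.07. The calls of *Zfp36* and *Junb* were lost without the pre-B library of mouse 2 (adjusted p = 0.274 and 0.602). *Fosb* had 99.1 in pro-B and 113 in pre-B cells of mouse 1 and 20659.8 and 7347 in mouse 2, between which no common direction can be read. Of 13 interferon-stimulated genes 4 rose and 2 fell (1 and 0 without mouse 1, 2 and 0 without mouse 2), beside 19.4% and 21.4% of all genes, and 2 rose and 2 fell without the pre-B library of mouse 2. Among them were *Mx1* (1.55) and *Stat2* (0.87, the highest count) upward and *Oas1a* (-1.23) downward. *Mx1* was not called without the pre-B library of mouse 2, where its change was 1.52. Of the sex genes, the Y-linked *Eif2s3y* had 2514 in pro-B and 4549 in pre-B cells of mouse 1 and 2584 and 4091 in mouse 2, and was present in all 4 libraries.

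The 2 Sirt7-/- mice had the same direction in every gene called, as the test nearly requires, and differed in size. Over the 12023 genes that averaged 100 or more normalized counts, the changes of the 2 mice correlated across genes with r = 0.771, and those of the 2 wild-type mice with r = 0.847. These are descriptions over genes that share libraries. A total of 232 such genes had a change of -3 or lower in mouse 1 and 43 in mouse 2, whereas 127 and 97 had one of 3 or higher. The genes below differed most between the mice, and *H1fx* was listed at 0 in a library and high in another of the same stage. *H1fx*, a linker histone gene, had 5186 in pro-B and 0 in pre-B cells of mouse 1 and 0 and 2349.5 in mouse 2, and its wild-type values showed the same alternation, 3518 in pro-B and 0 in pre-B cells of mouse 1 and 0 and 1499 in mouse 2. *Zfp292* had 5146 in pro-B and 196 in pre-B cells of mouse 1 and 438 and 7527 in mouse 2, *Islr2* 114 in pro-B and 4.26 in pre-B cells of mouse 1 and 143 and 1067 in mouse 2. In the same direction came *Cd7* (mouse 2 minus mouse 1 6.76 on the log2 scale) and the mast cell protease *Prss34* (6.58), and in the other *Gstp2* (-8.44), *Gvin1* (-8.34), *Kcng1* (-4.27), *Chst1* (-3.98) and the histone gene *Hist2h3c1* (-3.79). The wild-type mice differed in the same direction for *Islr2* (24.3 to 28.2 in mouse 1, 133 to 1278 in mouse 2) and *Kcng1* (22.4 to 68 in mouse 1, 393 to 50.3 in mouse 2). They differed in the opposite direction for *Zfp292*, *Prss34*, *Gstp2* and *Hist2h3c1*, and little for *Cd7*, *Gvin1* and *Chst1*.

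The same transition in wild-type mice had 3466 genes up (20.8%) and 4060 down (24.3%) of the same 16699. Of the genes that rose in Sirt7-/- mice 2690 also rose in wild-type mice, which is 83.2% of the Sirt7-/- list and 77.6% of the wild-type list. Of those that fell 3064 were shared, 85.9% and 75.5%. Opposite calls were made for 8 genes. The difference of the 2 changes was then tested for each gene. It passed an adjusted p of 0.05 for 0 genes (0%), with limma as with edgeR, and for 114 genes with DESeq2, and at an unadjusted p under 0.05 for 1244 genes (7.45%), of which 842 had a value above 0, a rise that was larger or a fall that was smaller in Sirt7-/- mice. The smallest adjusted p was 0.214.

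Side by side, the cell cycle lists had medians nearer to 0 in Sirt7-/- than in wild-type mice. They were -1.11 and -1.67 for replication and -1.12 and -1.68 for mitosis, with 29 of 30 and 26 of 26 differences above 0 and 14 and 13 at an unadjusted p under 0.05, none of them called after adjustment. Both lists had their shallowest fall in Sirt7-/- mouse 2, whose pre-B library stood apart; the replication medians were -1.29 and -0.97 in the Sirt7-/- mice and -1.79 and -1.52 in the wild-type mice. *Myc* fell in both genotypes, with changes of -2.21 in Sirt7-/- and -3.65 in wild-type mice (difference 1.43, SE 0.231, unadjusted p = 0.00165, adjusted p = 0.611). *Vpreb1* fell in both genotypes, with changes of -3.64 in Sirt7-/- and -5.73 in wild-type mice (difference 2.09, SE 0.629, unadjusted p = 0.0216, adjusted p = 0.664), and *Dntt* in both genotypes, with changes of -4.58 in Sirt7-/- and -7.30 in wild-type mice (difference 2.73, SE 1.01, unadjusted p = 0.0434, adjusted p = 0.664). *Rag1* rose by 0.91 and 1.66 (difference -0.75, SE 0.118, unadjusted p = 0.00152, adjusted p = 0.611). None of these 4 differences passed the test after adjustment. Without the pre-B library of Sirt7-/- mouse 2 the Sirt7-/- changes were nearer to those of wild type for 3 of the 4, -2.69 for *Myc*, -4.51 for *Vpreb1* and -6.17 for *Dntt*, and farther for *Rag1*, 0.67. That library was set apart after the data were seen, for keeping more pro-B transcripts, *Dntt* among them. The steeper fall of *Dntt* without it follows from that choice, and its part in the differences was not tested. The immature and mature B cell genes had medians of 2.82 and 2.21, the ribosome biogenesis genes -0.93 and -0.98, and the T cell markers -2.15 and -4.48, beside -0.03 and -0.03 for all genes. Of the 19 T cell differences 16 were above 0 and 4 had an unadjusted limma p under 0.05, with 0 called after adjustment. Of the 22 markers listed, 10 and 5 were at 0 in the Sirt7-/- pre-B libraries and 11 and 11 in the wild-type ones. Their summed pre-B levels were 3897 and 4523 in Sirt7-/- and 3591 and 3398 in wild-type mice. The Sirt7-/- medians without the pre-B library of mouse 2 were -1.31 for replication, -1.47 for mitosis, 3.07 for immature and mature B cell genes and -2.91 for T cell markers.

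**Figure D5:**
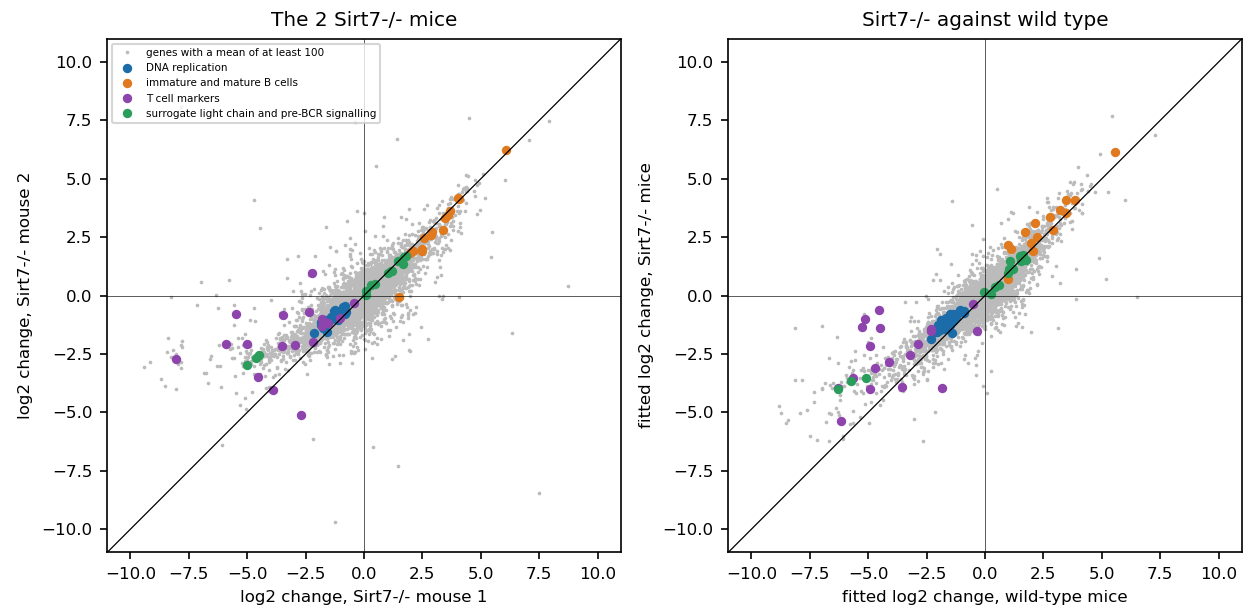
Left, log2 change from pro-B to pre-B cells in Sirt7-/- mouse 2 against mouse 1; right, fitted log2 change in Sirt7-/- against wild-type mice. Each grey point is a gene that averaged 100 or more normalized counts over the Sirt7-/- libraries, coloured points are the members of 4 lists at any level, and the diagonal marks equal change; the 3 surrogate light chain genes lie above the diagonal in both panels, and 29 of 30 replication genes lie above it on the right.

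The genes with the smallest p for the difference were as follows. *Trim26*, a ubiquitin ligase, had 1583 in pro-B and 4677 in pre-B cells of mouse 1 and 1561 and 4434 in mouse 2 of Sirt7-/-, and 4806 in pro-B and 3723 in pre-B cells of mouse 1 and 4751 and 3531 in mouse 2 of wild type (difference 1.93, SE 0.113, unadjusted p = 1.37e-05, adjusted p = 0.214). *Lsm12*, an RNA-binding protein, had 5009 in pro-B and 4111 in pre-B cells of mouse 1 and 3971 and 4601 in mouse 2 of Sirt7-/-, and 4168 in pro-B and 733 in pre-B cells of mouse 1 and 5044 and 853 in mouse 2 of wild type (difference 2.50, SE 0.195, unadjusted p = 5.66e-05, adjusted p = 0.214). In the first gene the genotypes differed most at the pro-B stage and in the second at the pre-B stage. The adaptor *Grb2* had 3113 in pro-B and 4863 in pre-B cells of mouse 1 and 7308 and 10088 in mouse 2 of Sirt7-/-, and 7181 in pro-B and 3815 in pre-B cells of mouse 1 and 7319 and 4106 in mouse 2 of wild type, so that the Sirt7-/- mice differed in level and shared the direction. *Nudcd3* and *Elmo2* had differences of 1.37 and 1.27. In the other direction stood *Mapk1ip1* (-2.02), the actin regulator *Arpc5* (-1.18), the tubulin gene *Tuba1a* (-1.59), the repressor *Zbtb18* (-1.27) and *Lman2l* (-1.46). *Tuba1a* had 7426 in pro-B and 3713 in pre-B cells of mouse 1 and 7396 and 4583 in mouse 2 of Sirt7-/-, and 6939 in pro-B and 11961 in pre-B cells of mouse 1 and 7627 and 12357 in mouse 2 of wild type. All 10 had an adjusted p between 0.214 and 0.32 and all 10 were called by DESeq2 on the recovered reads. They had been picked for their small p in this contrast and DESeq2 used the same libraries, so these calls are no further evidence.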

How the data were processed

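RNA was taken from frozen pellets of sorted cells, and polyadenylated RNA was sequenced as 150-base paired reads. Salmon (mm10, GC-bias option) and Tximeta gave gene counts. The signal values deposited by the authors are these counts normalized with DESeq2 size factors. Dividing by the value of 1 read gave whole reads for 100% of values (within 0.001 reads). ChIP-seq peaks came from Bowtie2 alignments (mapping quality 37 or more) and MACS2 with input as control, cut at a q-value of 0.05, 1 list per replicate; these deposited lists give fold enrichment (a ratio) and −log10 of the q-value.

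Log2(normalized count + 1) was fitted with limma 3.58.1 (R 4.3.3) over 8 libraries, with a stage term for each genotype, the mouse as a block and a variance trend (2 residual and 2.93 prior degrees of freedom). Pairs are libraries of 1 mouse by the labels; deviations of paired libraries correlated at 0.183 (Sirt7-/-) and 0.0883 (wild type). The fit was tested on simulated data. edgeR 4.0.16 and DESeq2 1.42.0 were run on the recovered reads. For symbols listed more than once, the row with the highest counts kept the symbol. Peaks found in both replicates overlapped by at least 1 base, and genes were placed with GENCODE M21 (93.9% of symbols placed once). RefSeq promoters were matched by symbol for 10378 genes.

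Members, gene lists and tests were chosen with earlier results of these data known. Genes were named as list members (the one with the highest count and up to 4 called with the largest change), as the 10 largest rises and falls with a mean of at least 100, as the 5 smallest p in each direction of the difference between genotypes, and as the 5 largest differences between the Sirt7-/- mice in each direction, without immunoglobulin or T cell receptor segments, numbered gene models and pseudogenes. Other genes named are list members that mark a stage or role and were chosen after their values were seen. RNA-seq of cultured cells and ChIP-seq of mutant Pax5 were not used. A few genes and 1 sorting marker that fall under the naming rule are not reported here.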

Additional observations from a re-analysis of the deposited data

Results flagged for a closer look

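The changes of 8 named genes went one way in both Sirt7-/- mice and the other way in both wild-type mice. Their differences (Sirt7-/- minus wild type, log2 scale) were -0.47 for *Rag2*, -0.76 for *Gfi1*, 1.01 for *Hba-a1*, 1.93 for *Trim26*, 1.37 for *Nudcd3*, 1.43 for *Grb2*, -1.59 for *Tuba1a* and -1.46 for *Lman2l*. The difference was tested for each gene in the fit across all genes, and none of the 8 passed after adjustment (limma, adjusted p = 0.657 for *Rag2*, 0.664 for *Gfi1* and 0.655 for *Hba-a1*, with 0.214 to 0.32 for the other 5). The last 5 had been named for their small p, so their opposite signs are no further evidence. With 2 mice a genotype, groups were too small for a check on single outlying samples.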

How the results depend on the processing

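The counts of genes that rose and that fell were lowest without both libraries of Sirt7-/- replicate 1. Over the settings without 1 mouse, the genes that rose numbered 1090 to 2817 and those that fell 942 to 3157, of which 418 to 678 and 342 to 1018 changed by at least 1.5. Without 1 Sirt7-/- mouse, list members that rose numbered 60 to 80 and those that fell 84 to 143, of 95 and 162. These fits hold fewer samples, and without both libraries of a mouse the remaining mouse of that genotype is assumed to vary like the other genotype. The genotype difference was called for 0 genes with limma, for 1 (*Trim26*) with no replicate block, for 114 with DESeq2 (82 above 0 and 32 below), for 0 without any 1 mouse, and for 9 without the pre-B library of Sirt7-/- replicate 2 and without the block, an alternative chosen after seeing the data. With no replicate block, 2914 genes rose and 3339 fell, against 3233 and 3566 with the pairing by mouse. With only the Sirt7-/- libraries and the block, 2794 rose and 3166 fell. Called genes had the same direction in both Sirt7-/- mice, so leaving out either mouse could not change a sign. The other settings refit the same counts, so unchanged signs are no further evidence. Of 143 called genes chosen by the naming rule or for the text 0 changed sign under any setting; 11 lost their call with no replicate block, 23 with no filter, 15 with edgeR, 1 with TMM, 2 with DESeq2, 50 without Sirt7-/- replicate 1 and 25 without replicate 2.

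Medians changed sign for V(D)J recombination (-0.14 to 0.13 without 1 Sirt7-/- mouse, -0.10 without the pre-B library of replicate 2), the IL-7 receptor pathway (-0.015 to 0.073 without 1 mouse) and erythroid markers (-0.64 to 0.24, and -1.24 without that library), as did *Il7r* (-0.19 to 0.033 without 1 mouse) and *Hba-a1* (-1.27 without that library); neither gene was called. The share with a Pax5 peak was 36.2%, 29.0% and 28.1% (rose, fell, all genes) at a −log10 q of at least 5, 31.7%, 25.6% and 25.2% within 2000 bases of the start, and 32.1% for all genes where a replicate 2 peak had to cover 50% of the replicate 1 peak. The cause of these changes was not tested. With 2 mice a genotype, the spread behind each p is borrowed from other genes, and genes at 0 in a library have fitted changes that depend on the pseudocount.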
